A study of Mus musculus with 8 samples.

Results

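The transforming growth factor beta (TGF-beta) module examined here comprised 10 genes: the ligands Tgfb1, Tgfb2 and Tgfb3, the latency proteins Ltbp1 and Ltbp2, the receptors Tgfbr1, Tgfbr2 and Tgfbr3, and the feedback genes Smad7 and Skil. They were taken by their symbol in the array's platform annotation, and all 10 were found among the 24306 named genes of the array, on 22 of its 43941 probes with a gene. The brightest probe, the one with the highest mean over all samples, stood for each gene. All 10 brightest probes passed the filter that removed the dimmest 30% of genes by their mean over the 8 samples, below a log2 intensity of 3.39, which left 17014 genes.

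Primary heart fibroblasts, taken from mice and grown in DMEM with serum, were compared between 2 genotypes and 2 oxygen conditions, and each of the 4 groups held 2 samples. These groups were cells labelled Siah knockout after 6 h in a chamber at 1% O2, cells with the same label left in normoxia, wild-type cells after the same 6 h at 1% O2, and wild-type cells left in normoxia. The genotype label names neither the Siah gene altered nor the allele, and the labels give no strain, age or sex of the animals. No agent other than low oxygen is named for any group. The samples are described as biological replicates, but which of them came from the same animal or culture is not stated, so each p-value reflects the spread among the samples at hand. The Siah genes encode RING-type ubiquitin ligases whose known targets include the prolyl hydroxylases that sense oxygen.

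TGF-beta is secreted by many cell types as a latent complex, in which the ligand stays bound to its own propeptide and, through it, to a latent TGF-beta binding protein that anchors it in the matrix. Once released, it binds the type II receptor, which phosphorylates the type I receptor, and this in turn phosphorylates SMAD2 and SMAD3, which enter the nucleus with SMAD4. In the heart this pathway is known for turning fibroblasts into contractile, matrix-producing myofibroblasts, and it induces its own inhibitors, among them SMAD7 and the co-repressor SnoN, encoded by Skil.

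The fibroblast markers were present in all samples: none of the 14 had a mean under the limit of 3.39, and their average log2 level lay between 12.1 and 12.4 in knockout-labelled samples and between 12.3 and 12.5 in wild-type samples. Single markers differed more than this average, and 10 of the 14 had a lower mean in knockout-labelled samples. Fap averaged 6.36 in knockout-labelled and 7.95 in wild-type samples, and Lum 6.91 and 8.16. Thy1, at 14.32 and 13.27, and Dpt, at 7.59 and 6.35, went the other way. Markers of macrophages and other leukocytes were present as well. Of these 17, Cd163 alone lay under the limit, and their average level was 11.2 and 10.3 in replicates 1 and 2 of knockout-labelled hypoxia, 11.2 and 10.3 in knockout-labelled normoxia, 11.6 and 12.1 in wild-type hypoxia and 11.6 and 12.1 in wild-type normoxia. All 17 had a lower mean in knockout-labelled samples. Cardiomyocyte markers averaged 5.14 to 5.76 over the 8 samples, with Myh6, Myh7, Tnni3 and Pln under the limit, and endothelial markers 5.55 to 5.87. Some single genes of these lists were well above it. Actc1 averaged 14.45, and Tnnt2 10.85 in knockout-labelled and 9.00 in wild-type samples. Among endothelial genes Emcn averaged 9.13 and 7.87 and Flt1 8.14 and 8.77 in the same order. In knockout-labelled samples 5 of 12 cardiomyocyte and 8 of 11 endothelial markers had a lower mean. The Y-linked gene Eif2s3y averaged 3.61 ± 0.28 in knockout-labelled samples and 8.93 ± 0.14 in wild-type samples (SD, n = 4 each), so sex and genotype cannot be told apart in these samples. Siah2 gave 9.29 and 8.87 in knockout-labelled hypoxia and 6.60 and 7.39 in knockout-labelled normoxia, against 8.71 to 9.55 in the 4 wild-type samples, and where its probe lies relative to the altered part is not known.

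Each of the 10 genes was first read in every sample, on the deposited log2 scale on which a difference of 1 is a doubling of the signal. Levels of different probes are not comparable, so no gene was ranked against another by its level. Of the 3 ligands, Tgfb1, the form most widely expressed in inflammation and repair, gave 9.00 and 9.46 in knockout-labelled hypoxia, 8.63 and 9.15 in knockout-labelled normoxia, 9.995 and 9.29 in wild-type hypoxia and 10.08 and 9.25 in wild-type normoxia, replicate 1 before replicate 2 in each group. Replicate 2 was the higher of the pair in knockout-labelled cells and the lower in wild-type cells. The ranges of the genotypes overlapped.

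Tgfb2, which depends on the co-receptor betaglycan for efficient binding to the type II receptor, gave 12.44 and 11.83 in knockout-labelled hypoxia, 12.81 and 11.95 in knockout-labelled normoxia, 11.74 and 12.32 in wild-type hypoxia and 11.53 and 12.61 in wild-type normoxia. The order of the replicates was the reverse of that of Tgfb1 in every group. Tgfb3, the third isoform, gave 13.56 and 13.86 in knockout-labelled hypoxia, 13.65 and 14.03 in knockout-labelled normoxia, 13.67 and 12.94 in wild-type hypoxia and 13.75 and 13.17 in wild-type normoxia. Its replicates ran the same way as those of Tgfb1, and replicate 2 of both wild-type groups was the lowest pair of samples.

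Among the latency proteins, Ltbp1, which is covalently bound to the latent ligand, gave 8.71 and 9.37 in knockout-labelled hypoxia, 8.59 and 9.18 in knockout-labelled normoxia, 9.12 and 8.38 in wild-type hypoxia and 9.25 and 8.17 in wild-type normoxia. The ranges of the genotypes overlapped. Ltbp2, a relative that is found on microfibrils and does not bind the latent ligand, gave 11.19 and 12.11 in knockout-labelled hypoxia, 11.09 and 12.09 in knockout-labelled normoxia, 13.14 and 12.87 in wild-type hypoxia and 13.07 and 12.83 in wild-type normoxia. All 4 knockout-labelled samples lay below all 4 wild-type samples, and replicate 1 of each knockout-labelled group was the lowest.

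The type I receptor Tgfbr1, the kinase that phosphorylates SMAD2 and SMAD3, gave 9.31 and 9.06 in knockout-labelled hypoxia, 9.37 and 9.57 in knockout-labelled normoxia, 9.60 and 9.38 in wild-type hypoxia and 9.64 and 9.87 in wild-type normoxia. The type II receptor Tgfbr2 gave 11.49 and 11.00 in knockout-labelled hypoxia, 11.70 and 11.04 in knockout-labelled normoxia, 11.69 and 12.21 in wild-type hypoxia and 11.61 and 12.30 in wild-type normoxia. Replicate 1 of all 4 groups lay close together for Tgfbr2, and replicate 2 lay below it in knockout-labelled cells and above it in wild-type cells. Tgfbr3, which encodes betaglycan, gave 7.65 and 7.07 in knockout-labelled hypoxia, 7.44 and 7.23 in knockout-labelled normoxia, 7.12 and 8.09 in wild-type hypoxia and 7.66 and 8.11 in wild-type normoxia. Its 2 highest values were those of replicate 2 of the wild-type groups.

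Of the feedback genes, Smad7, an inhibitory SMAD that occupies the activated type I receptor and recruits ubiquitin ligases to it, gave 10.81 and 10.95 in knockout-labelled hypoxia, 10.52 and 10.76 in knockout-labelled normoxia, 10.72 and 10.57 in wild-type hypoxia and 10.05 and 9.82 in wild-type normoxia. The 2 wild-type normoxia samples were the lowest of the 8, and the other 6 lay within 10.52 to 10.95. Skil, whose product SnoN represses SMAD target genes, gave 9.24 and 10.13 in knockout-labelled hypoxia, 9.20 and 10.16 in knockout-labelled normoxia, 9.93 and 9.00 in wild-type hypoxia and 10.24 and 9.32 in wild-type normoxia. Its values formed a high set of 4 and a low set of 4, and each set held 1 sample of every group.

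**Figure D1:**
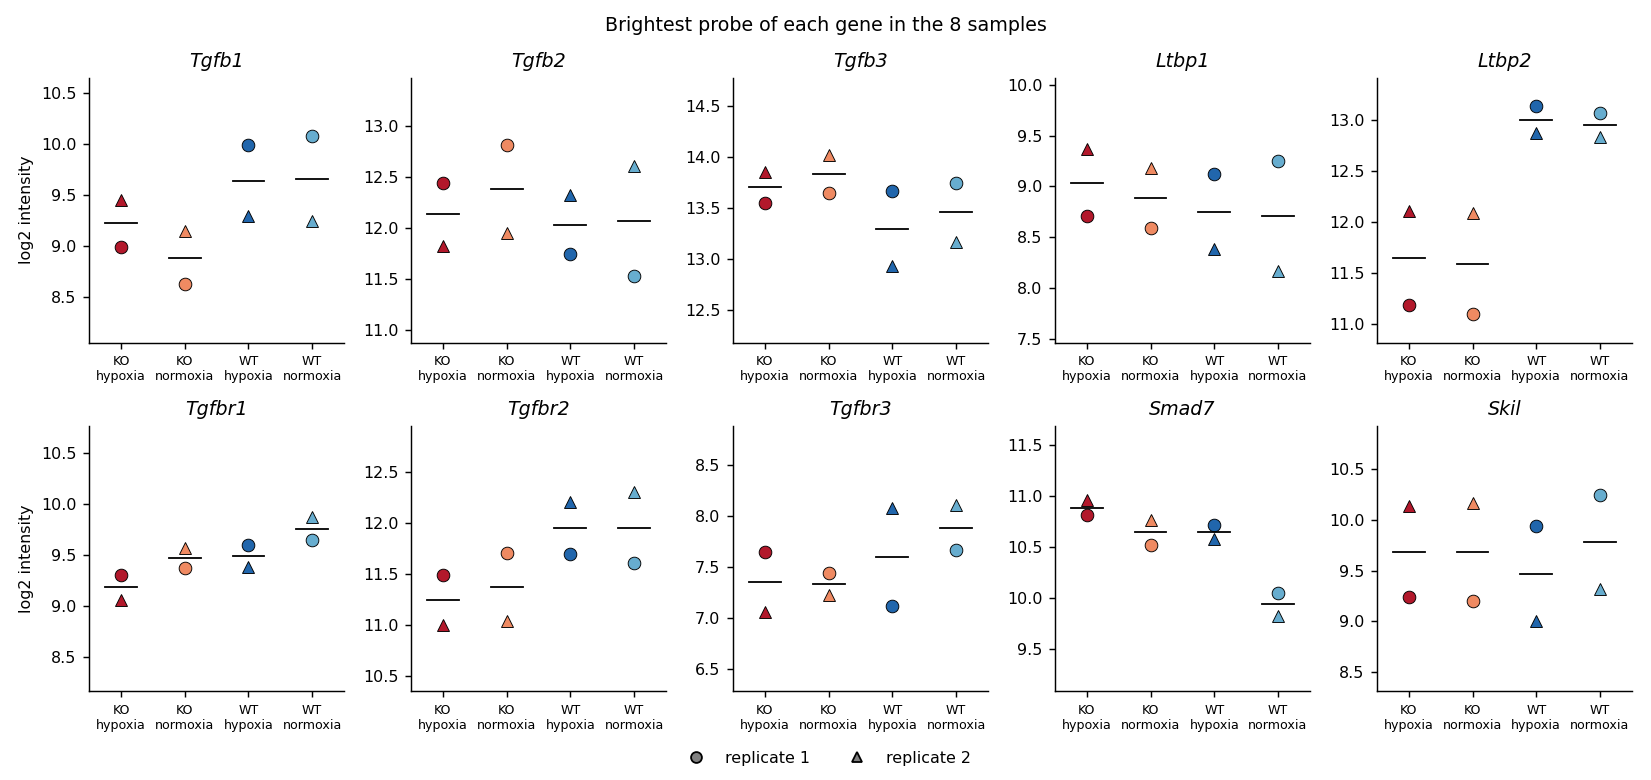
Log2 intensity (y axis) of the brightest probe of each of the 10 genes in the 4 groups (x axis; KO, labelled Siah knockout; WT, wild type); circles are replicate 1, triangles replicate 2, bars the group mean, and every panel spans the same 2.6 log2 units. Ltbp2 lies between 11.09 and 12.11 in the KO samples and between 12.83 and 13.14 in the WT samples, and Smad7 is lowest in the WT normoxia samples, at 9.82 and 10.05.

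The stretches before the annotated start sites are shown for 3 genes: Ltbp2, which had the largest genotype difference, and Tgfb2 and Tgfbr2, a ligand and a receptor whose replicates ran together. They are the 250 bases upstream of a start in RefSeq, on the strand of the gene, build GRCm38.p6. Capitals mark matches on either strand to the cores of the hypoxia response element, ACGTG and GCGTG, and to the SMAD box, CAGAC; the AP-1 site TGANTCA was searched as well and had no match in any of them. A match is a string of letters and not a measured binding site.
Ltbp2, chr12:84876492-84876741, minus strand: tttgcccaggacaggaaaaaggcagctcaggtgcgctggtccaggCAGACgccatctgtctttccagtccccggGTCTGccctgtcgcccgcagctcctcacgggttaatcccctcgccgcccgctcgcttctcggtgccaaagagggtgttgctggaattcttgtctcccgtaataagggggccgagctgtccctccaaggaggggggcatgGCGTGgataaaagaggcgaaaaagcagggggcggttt
Tgfb2, chr1:186705990-186706239, minus strand: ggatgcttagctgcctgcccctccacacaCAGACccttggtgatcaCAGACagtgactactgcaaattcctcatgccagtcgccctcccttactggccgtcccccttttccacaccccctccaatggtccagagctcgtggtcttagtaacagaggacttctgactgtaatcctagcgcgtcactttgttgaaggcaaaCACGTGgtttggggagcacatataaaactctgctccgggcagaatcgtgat
Tgfbr2, chr9:116175364-116175613, minus strand: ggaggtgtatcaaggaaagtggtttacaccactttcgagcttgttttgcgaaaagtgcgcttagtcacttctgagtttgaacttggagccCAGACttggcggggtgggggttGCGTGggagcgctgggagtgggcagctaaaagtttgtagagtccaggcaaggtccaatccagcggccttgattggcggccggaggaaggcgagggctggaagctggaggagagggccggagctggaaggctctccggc
The Ltbp2 stretch held GCGTG once, 37 bases before the start, and CAGAC or its reverse complement 2 times. The Tgfb2 stretch held ACGTG on both strands in overlapping letters, 51 and 50 bases before the start, and CAGAC 2 times. The Tgfbr2 stretch held GCGTG once and CAGAC once. RefSeq windows were matched for 6 of the 10 genes, with 8 windows in all, of which 2 held ACGTG, 4 GCGTG and 6 CAGAC. Of all 32851 such windows, 16.6% held ACGTG, 28.2% GCGTG, 42.2% CAGAC and 6.75% TGANTCA, so these letters are common in stretches of this length.

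For 6 of the 10 genes the replicates of a group lay further apart than the genotypes or the oxygen conditions, as measured by sums of squares. In 9 of the 10, all except Tgfbr1, replicate 2 minus replicate 1 had the same sign in both knockout-labelled groups and the opposite sign in both wild-type groups, which was also the case for 38.5% of all genes tested. Tgfb2, Tgfbr2 and Tgfbr3 were the 3 that were higher in replicate 2 of wild type and in replicate 1 of knockout-labelled cells, and Tgfb1, Tgfb3, Ltbp1, Ltbp2, Smad7 and Skil were the 6 that ran the other way. Macrophage and leukocyte markers ran with the first 3: their average was lower in replicate 2 than in replicate 1 of the knockout-labelled groups, at 10.3 against 11.2, and higher in the wild-type groups, at 12.1 against 11.6. The average of epicardial and mesothelial markers ran the same way. In replicates 1 and 2 it was 8.48 and 8.10 in knockout-labelled hypoxia and 8.28 and 8.15 in knockout-labelled normoxia. It was 7.94 and 8.48 in wild-type hypoxia and 7.70 and 8.06 in wild-type normoxia. The averages of fibroblast, cardiomyocyte, and smooth muscle and pericyte markers ran with the other 6 genes, and that of endothelial markers with neither set. The part of these markers in the differences between replicates was not tested. In bulk samples fewer cells of a type and less RNA per cell cannot be told apart.

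The 7 degrees of freedom of the 8 samples were split into oxygen, genotype, replicate number and their products. The product of replicate number and genotype took the largest share of the sum of squares in 6 of the 10 genes and in 36.1% of genes tested, and its median share was 50.2% in the 10 genes and 20.4% over all genes tested. It took 94.2% for Skil, 85.5% for Ltbp1 and 84.2% for Tgfb2. Genotype took the largest share for Ltbp2, with 79.0%, for Tgfbr2, with 53.1%, and for Tgfbr1, with 40.8%. Oxygen did so for Smad7 alone, with 41.8%, beside 41.0% for genotype. The median share of oxygen was 2.92% in the 10 genes and 4.88% over all genes tested.

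**Figure D2:**
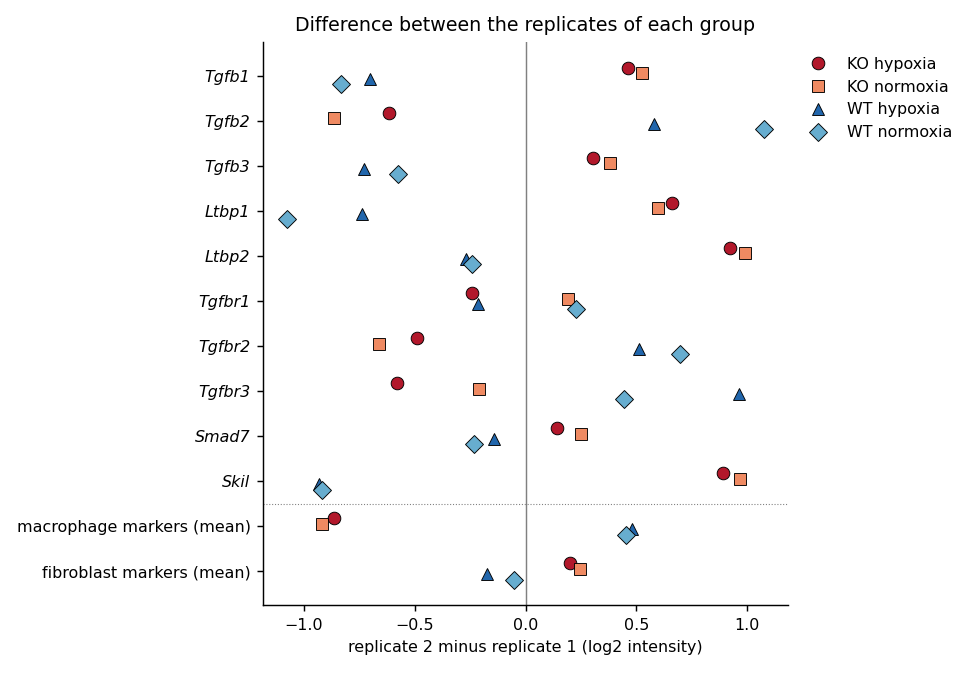
Replicate 2 minus replicate 1 in log2 intensity (x axis) for each gene and for the average of the macrophage and fibroblast markers (y axis), with a symbol for each of the 4 groups (KO, labelled Siah knockout; WT, wild type). In 9 genes both KO symbols lie on one side of 0 and both WT symbols on the other, whereas for Tgfbr1 the hypoxia groups of both genotypes lie below 0 and the normoxia groups above it.

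The comparison of the genotypes asked whether cells labelled Siah knockout differed from wild-type cells, averaged over both oxygen conditions (4 samples against 4). Ltbp2 had the largest difference of the 10, at 11.62 ± 0.55 in knockout-labelled samples and 12.98 ± 0.15 in wild-type samples (SD, n = 4 each). Its log2 fold change was -1.36 (SE 0.30, 95% confidence interval -2.09 to -0.63), which is 0.389 times the wild-type signal, with an unadjusted p of 0.00366 and an adjusted p of 0.204 in limma, so it was not called at an adjusted p under 0.05. It was the only gene of the 10 whose genotypes did not overlap, which was the case for 8.82% of genes tested, and for 4.85% the knockout-labelled samples were the lower ones. The difference was -1.36 both in normoxia (SE 0.43, adjusted p = 0.635) and in hypoxia (SE 0.43, adjusted p = 0.664); without replicate 1 of the knockout-labelled group these were -0.87 and -0.90. Taking the mean over both Ltbp2 probes, the other of which averaged 2.87 and lay under the dim limit, gave -0.77.

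None of the 10 genes was called in the averaged genotype comparison with limma, where 0.047% of genes tested were called, and 3 of 10 had an unadjusted p under 0.05, as had 9.95% of genes tested. Beside Ltbp2 these were Smad7 and Tgfbr2. Smad7 averaged 10.76 ± 0.18 in knockout-labelled samples and 10.29 ± 0.43 in wild-type samples, a log2 fold change of 0.47 (SE 0.14, 95% confidence interval 0.14 to 0.80, adjusted p = 0.302 in limma). Tgfbr2 averaged 11.31 ± 0.34 in knockout-labelled samples and 11.95 ± 0.35 in wild-type samples, a log2 fold change of -0.64 (SE 0.26, 95% confidence interval -1.28 to -0.0037, adjusted p = 0.499). For both genes the ranges of the genotypes overlapped.

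The other receptors and Tgfb1 had negative fold changes, of -0.29 for Tgfbr1 (SE 0.14), -0.40 for Tgfbr3 (SE 0.27) and -0.59 for Tgfb1 (SE 0.28). Those of Tgfb2 (0.21, SE 0.34), Tgfb3 (0.39, SE 0.24), Ltbp1 (0.23, SE 0.33) and Skil (0.06, SE 0.39) were positive, and those of Tgfb2, Ltbp1 and Skil changed sign when single samples were left out. Without replicate 2 of wild-type hypoxia that of Tgfbr3 was -0.16 and that of Tgfb3 0.21, and without replicate 1 of wild-type normoxia that of Tgfb1 was -0.39. In all, 5 were positive and 5 negative, with a median of -0.12 beside 0.03 over all genes tested. The unadjusted 95% intervals of the single genes ran from 0.235-fold, the lower bound for Ltbp2, to 2.06-fold, the upper bound for Ltbp1. They take the samples as independent, although same-numbered samples of a genotype deviated together. The macrophage and leukocyte markers and the sex-linked Eif2s3y moved with genotype as given above. Of 11 smooth muscle and pericyte markers 8 had a lower mean in knockout-labelled samples, and the average of the list was 8.13 to 8.67 in knockout-labelled samples and 9.01 to 9.12 in wild-type samples. Des, Myh11 and Cspg4 were among the lower ones, Mcam averaged 12.27 in knockout-labelled samples and 11.95 in wild-type samples, Acta2 and Tagln lay at the top of the scale, and Kcnj8 and Abcc9 lay under the dim limit. The part of these markers in the fold changes was not tested.

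**Figure D3:**
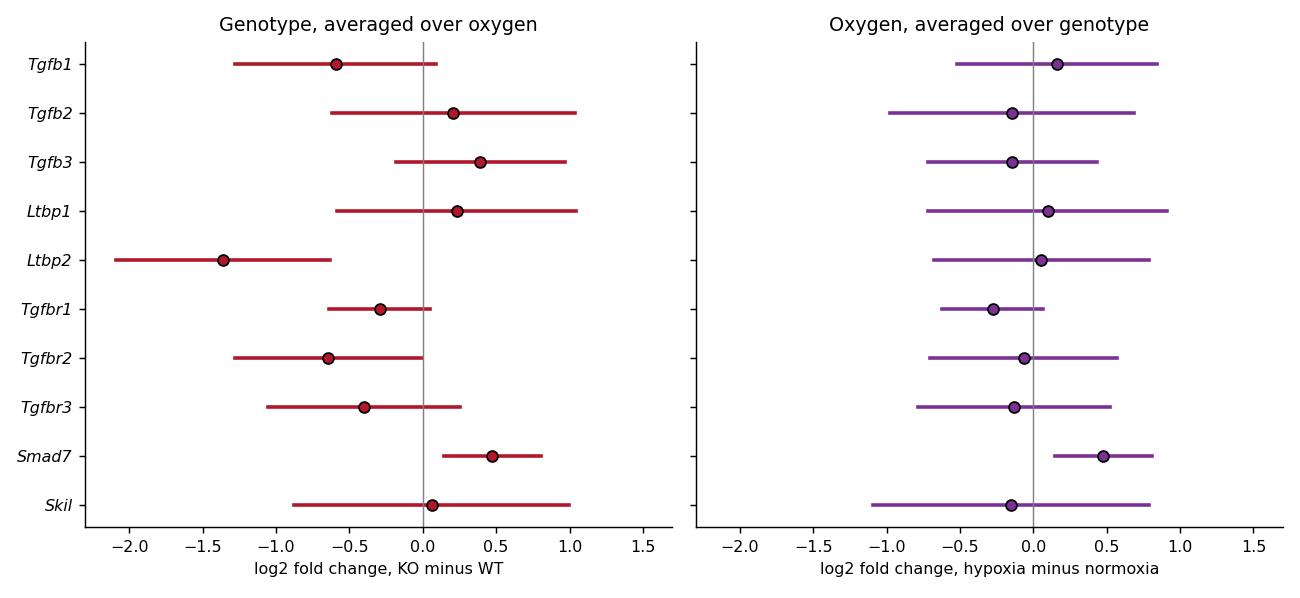
Log2 fold change (x axis) with its unadjusted 95% confidence interval for each gene (y axis), knockout-labelled (KO) minus wild type (WT) on the left and hypoxia minus normoxia on the right, each 4 samples against 4. The interval of Ltbp2 lies below 0 on the left, at -2.09 to -0.63, and that of Smad7 lies above 0 in both panels. Of the others, only that of Tgfbr2 on the left ends short of 0, at -0.0037.

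Where a gene had other probes, their log2 fold changes were read beside that of the brightest. Between the genotypes the other Tgfb1 probe, which averaged 6.62, had a fold change of -0.54, against -0.59 for the brightest. The other Smad7 probe, which averaged 7.62, had 0.33 against 0.47, and the other Tgfb2 probe 0.29 against 0.21. Ltbp1, Tgfbr1 and Skil had dimmer probes of both signs. The remaining Ltbp1 probes gave -0.18, 0.65 and -0.52, against 0.23 for the brightest. Those of Tgfbr1 gave -0.17, -0.72 and 0.33 against -0.29, and those of Skil 0.25 and -0.23 against 0.06. All of these dimmer probes averaged 5.34 or less, and 3 of the 22 probes lay under the dim limit. Tgfb3, Tgfbr2 and Tgfbr3 had 1 probe each.

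The oxygen comparison asked how the cells answered 6 h at 1% O2. Averaged over the genotypes, Smad7 was the gene of the module with the largest fold change. It averaged 10.76 ± 0.16 in hypoxia and 10.29 ± 0.43 in normoxia (SD, n = 4 each), a log2 fold change of 0.48 (SE 0.14, 95% confidence interval 0.15 to 0.81), or 1.39-fold. Its unadjusted p was 0.0121 and its adjusted p 1.00 in limma, so it was not called, and the ranges of hypoxia and normoxia overlapped. The other Smad7 probe gave 0.43.

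With limma 0 of the 10 genes were called in the averaged oxygen comparison, where 0% of genes tested were called, and Smad7 was the 1 gene with an unadjusted p under 0.05, as had 3.76% of genes tested. The fold changes of 8 of the 10, all except Tgfbr1 and Smad7, changed sign when single samples were left out. Leaving out a sample makes the replicate numbers unequal between hypoxia and normoxia. These changes of sign therefore also hold the difference between replicates. Apart from Smad7, the genes had log2 fold changes between -0.28 and 0.16. Tgfbr1 was at one end, with 9.34 ± 0.22 in hypoxia and 9.61 ± 0.21 in normoxia (SE 0.14, 95% confidence interval -0.62 to 0.07), and Tgfb1 at the other, with 9.44 ± 0.42 in hypoxia and 9.28 ± 0.60 in normoxia (SE 0.28). In all, 4 were positive and 6 negative, with a median of -0.10 beside -0.01 over all genes tested. None of the 10 had groups that did not overlap, whereas 2.16% of genes tested did. The 95% intervals of the 10 genes ran from 0.469-fold to 1.88-fold. Of 16 HIF targets read beside them, 0 were called, 15 had positive fold changes and 13 had an unadjusted p under 0.05, with a median of 1.22 in the average over the genotypes. Taken singly, 10 had such a p in knockout-labelled cells, with a median of 1.00, and 12 in wild-type cells, with a median of 1.44. Bnip3, a mitophagy receptor, averaged 13.37 ± 0.68 in hypoxia and 10.83 ± 0.44 in normoxia (2.55, SE 0.28, adjusted p = 0.147 in limma), and Ero1a, an oxidoreductase of the endoplasmic reticulum, 12.60 ± 0.19 in hypoxia and 11.29 ± 0.17 in normoxia (1.31, SE 0.14, adjusted p = 0.147).

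Taken by genotype, the Smad7 values in hypoxia and normoxia were close in knockout-labelled cells and apart in wild-type cells. In knockout-labelled cells its log2 fold change was 0.24 (SE 0.19, 95% confidence interval -0.22 to 0.71, adjusted p = 1.00), with 0.12 and 0.37 when replicate 1 or replicate 2 of knockout-labelled normoxia was left out, and in wild-type cells 0.71 (SE 0.19, 95% confidence interval 0.24 to 1.18, unadjusted p = 0.00961, adjusted p = 1.00 in limma). Both wild-type hypoxia samples were above both wild-type normoxia samples, and the same was true of the knockout-labelled groups by a smaller margin. With 2 samples against 2 such an order is easily reached. Its share over all genes tested was not counted, so it adds no support to the fold changes. The difference of the responses, knockout-labelled minus wild type, was -0.47 (SE 0.27, 95% confidence interval -1.13 to 0.19, adjusted p = 1.00), so the responses were not shown to differ. Between the genotypes Smad7 differed by 0.71 in normoxia (SE 0.19, adjusted p = 0.559) and by 0.24 in hypoxia (SE 0.19, adjusted p = 0.994; 0.17 to 0.31 without single samples). These comparisons share samples: the wild-type normoxia pair enters both the wild-type oxygen comparison and the genotype comparison in normoxia.

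Within the single groups limma called none of the 10 genes. In hypoxia against normoxia 0 of 10 had an unadjusted p under 0.05 in knockout-labelled cells, beside 2.6% of genes tested, and 1 of 10 in wild-type cells, beside 3.62%, while 0% of genes tested were called in either. Between the genotypes 1 of 10, Ltbp2, had such a p in hypoxia, beside 6.24% of genes tested, and 2 of 10, Ltbp2 and Smad7, in normoxia, beside 6.48%, while 0.00588% of genes tested were called in each. For the difference of the responses 0 of 10 had such a p, beside 2.45% of genes tested, and 0% were called. The 95% intervals of these differences of responses ran from 0.274-fold to 4.58-fold over the 10 genes.

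**Figure D4:**
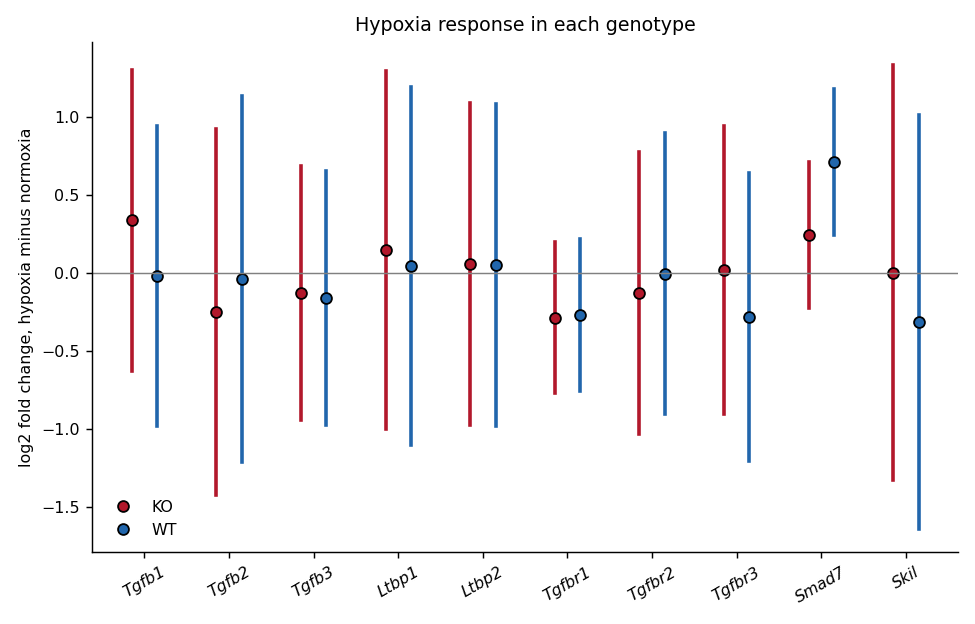
Log2 fold change of hypoxia over normoxia (y axis) with its unadjusted 95% confidence interval for each gene (x axis), in knockout-labelled (KO, left of each pair) and wild-type (WT) cells, 2 samples against 2. Smad7 in WT cells, at 0.71, is the 1 value of the 20 whose interval does not include 0.

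The surrounding pathway was read through 6 lists of other genes, chosen with earlier results of these data known, of which 108 genes were tested. None was called by limma in the averaged genotype comparison, the averaged oxygen comparison or the difference of the responses, where 16, 3 and 2 of them had an unadjusted p under 0.05. Over all genes tested the shares with such a p were 9.95%, 3.76% and 2.45% in the same comparisons. Between the genotypes, 15 of 19 genes of latency and activation were lower in knockout-labelled samples, at a median of -0.18 on the log2 scale, and 4 of them had an unadjusted p under 0.05. Nrros, which tethers latent TGF-beta1 on myeloid cells, gave 10.52 and 9.43 in knockout-labelled hypoxia, 10.56 and 9.60 in knockout-labelled normoxia, 11.02 and 11.31 in wild-type hypoxia and 10.87 and 11.38 in wild-type normoxia (-1.12, SE 0.33, adjusted p = 0.322). Its values followed the order of the macrophage and leukocyte markers within each group. The urokinase gene Plau, whose product converts plasminogen to plasmin, averaged 8.26 ± 0.26 in knockout-labelled samples and 8.83 ± 0.10 in wild-type samples (-0.57, SE 0.16, adjusted p = 0.283).

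Among the ligand-binding proteins and co-receptors 4 of 13 were higher and 9 lower in knockout-labelled samples, with a median of -0.15. Dcn, which encodes the small proteoglycan decorin that binds TGF-beta in the matrix, averaged 14.01 ± 0.10 in knockout-labelled samples and 14.80 ± 0.13 in wild-type samples (-0.79, SE 0.14, adjusted p = 0.135). Nrp1, a co-receptor of several growth factors, averaged 11.16 ± 0.04 in knockout-labelled samples and 11.90 ± 0.17 in wild-type samples (-0.73, SE 0.13, adjusted p = 0.144). Of the SMADs and their partners 9 of 14 were higher, with Tfdp1 at 0.34 (SE 0.12, adjusted p = 0.404) and Smad9 at 0.55 (SE 0.19, adjusted p = 0.408), and the median was 0.07.

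Of the other inhibitors and SMAD ubiquitin ligases 15 of 20 were higher in knockout-labelled samples, with a median of 0.14, and 1 had an unadjusted p under 0.05. This was Bambi, a decoy receptor that lacks a kinase domain, at 8.86 and 8.89 in knockout-labelled hypoxia, 8.94 and 9.20 in knockout-labelled normoxia, 8.37 and 8.07 in wild-type hypoxia and 8.21 and 8.15 in wild-type normoxia. Every knockout-labelled sample lay above every wild-type sample (log2 fold change 0.77, SE 0.14, adjusted p = 0.142). Bambi was named for the smallest p of its list, and 8.82% of genes tested had genotypes that did not overlap, in either direction. The ubiquitin ligase gene Nedd4l had 0.28 (SE 0.14, adjusted p = 0.589).

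The list of TGF-beta target genes was split between the directions, with 10 of 30 higher and 20 lower in knockout-labelled samples and a median of -0.05. Acta2 and Tagln of this list lay at the top of the scale, where a difference could hardly show. Tgfbi, a matrix protein named for its induction by the pathway, gave 11.14 and 11.08 in knockout-labelled hypoxia, 11.10 and 11.15 in knockout-labelled normoxia, 12.15 and 11.89 in wild-type hypoxia and 12.00 and 11.92 in wild-type normoxia. The genotypes lay apart without overlap, and the log2 fold change was -0.87 (SE 0.12, adjusted p = 0.102). Such a gap, in either direction, was the case for 8.82% of genes tested, and Tgfbi was named for the smallest p of its list. The cartilage matrix gene Comp averaged 6.43 ± 0.43 in knockout-labelled samples and 7.06 ± 0.23 in wild-type samples (-0.64, SE 0.22, adjusted p = 0.405). Of the activins and related ligands 6 of 12 were higher and 6 lower, and Inhbb, a subunit of activin B, averaged 11.77 ± 0.19 in knockout-labelled samples and 12.35 ± 0.33 in wild-type samples (-0.58, SE 0.14, adjusted p = 0.233). The activin receptor gene Acvr2b, with values of 4.06 to 6.73, had -0.90 (SE 0.40, adjusted p = 0.542).

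With hypoxia the same lists lay close to 0, with medians between -0.07 and 0.00 in the average over the genotypes. Some TGF-beta target genes had little room to rise. Over the 8 samples Acta2 gave 15.978 to 15.999 and Tagln 15.984 to 15.999, at the top of the scale. Col1a1, Col1a2 and Col3a1 averaged 15.45, 15.66 and 15.15. The median of that list therefore holds genes in which an increase could hardly show. Htra3, a secreted protease, averaged 9.21 ± 0.65 in hypoxia and 8.43 ± 0.33 in normoxia (0.79, SE 0.25, adjusted p = 1.00), and Inhbb 11.87 ± 0.29 in hypoxia and 12.25 ± 0.44 in normoxia (-0.38, SE 0.14, adjusted p = 1.00). The BMP-responsive Id1 averaged 11.12 ± 0.41 in hypoxia and 11.69 ± 0.22 in normoxia (-0.57, SE 0.24), and the stress-induced ligand Gdf15 9.92 ± 0.59 in hypoxia and 10.72 ± 0.65 in normoxia (-0.81, SE 0.34). Smad2 had -0.30 (SE 0.16) and Smad6, the other inhibitory SMAD, -0.29 (SE 0.20). Fn1, which encodes fibronectin, had 0.32 (SE 0.12), the integrin gene Itgb8 -0.24 (SE 0.15), Emilin1 0.23 (SE 0.16), the coactivator gene Crebbp 0.15 (SE 0.14), the deubiquitinase gene Usp11 0.59 (SE 0.28) and Aspn, a small proteoglycan, 0.96 (SE 0.50), all with an adjusted p of 1.00 in limma.

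For the difference of the responses the smallest unadjusted p belonged to Fn1. It gave 15.57 and 15.57 in knockout-labelled hypoxia, 15.62 and 15.67 in knockout-labelled normoxia, 15.80 and 15.76 in wild-type hypoxia and 14.94 and 15.20 in wild-type normoxia. The 2 wild-type normoxia samples were the lowest, as they were for Smad7, and the difference of the responses, knockout-labelled minus wild type, was -0.79 (SE 0.25, unadjusted p = 0.0181, adjusted p = 1.00 in limma). These values lie near the top of the scale, where the highest value of any spot was 16.0. The phosphatase gene Ppm1a had 0.67 (SE 0.25, unadjusted p = 0.0349, adjusted p = 1.00), and with the mean over its probes this turned to -0.077. The other genes named from the 6 lists had unadjusted p-values of 0.151 or more: Aspn -1.65 (SE 1.01), Acvr2b -1.25 (SE 0.80), Mmp14, a membrane-bound protease gene, 0.37 (SE 0.26), Axin1 -0.28 (SE 0.23), Smad9 0.42 (SE 0.38), Htra3 -0.56 (SE 0.51), Mstn, which encodes myostatin, -0.52 (SE 0.47), Emilin1 0.33 (SE 0.32), Smad5 -0.97 (SE 0.98) and Col1a2, a chain of type I collagen, -0.32 (SE 0.38).

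**Figure D5:**
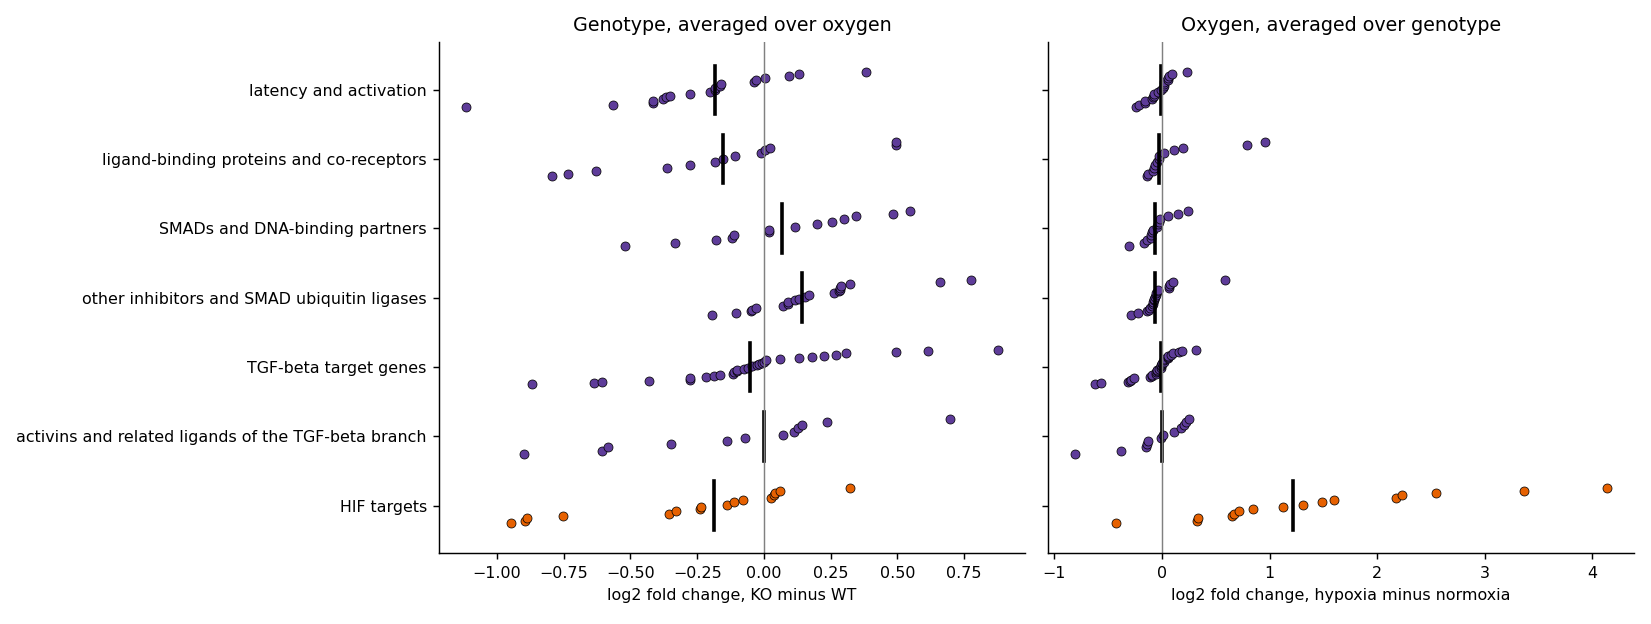
Log2 fold change (x axis) of each gene of the 6 pathway lists and of the HIF targets (y axis), knockout-labelled (KO) minus wild type (WT) on the left and hypoxia minus normoxia on the right, with a black bar at each list's median; the panels have different scales. The HIF targets have a median of 1.22 with hypoxia, whereas the medians of the 6 pathway lists lie between -0.07 and 0.00. Among the TGF-beta target genes, Acta2 and Tagln lay at the top of the scale, where an increase could hardly show.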

How the data were processed

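Total RNA of the 8 samples was amplified and labelled with Cy3 with an Agilent Low-Input QuickAmp kit, per the labels' protocols. The authors deposited 1 table of 62976 spots by 8 columns, used here as log2 intensity, with the log base inferred from their range of 2.13 to 16.0. The 8 columns have a median of 3.94 each, and how background and scale were treated is not given in the sources at hand. The submitters' processing notes name limma without a version. A total of 10 values were missing. Of the spots 43941 had 1 gene symbol, 0 several and 19035 none, with symbols updated through a RefSeq table of GRCm38.p6 (33708 by accession and 463 by synonym).

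The brightest probe stood for a gene, and the dimmest 30% of genes were removed. Group means were fitted to all 8 samples in limma 3.58.1 under R 4.3.3 (lmFit, eBayes, 4 residual and 2.25 prior degrees of freedom), with Benjamini-Hochberg adjustment over 17014 genes and calls at an adjusted p under 0.05. The scripts were tested on simulated data. The members, the lists and most alternatives were chosen with earlier results of these data known. Named from each list were the genes called in an averaged comparison or in the difference of the responses, or, where none was called, the 2 with the smallest p. The number of arrays limits the precision. Alternatives were quantile normalization, a common 75th percentile, no filter or a stricter one, the mean over probes, a variance trend, array weights, the groups compared alone, replicate blocks and leaving out each sample.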

Additional observations from a re-analysis of the deposited data

How the results depend on the processing

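Genes were called in the averaged genotype comparison in widely different numbers, 8 as fitted, 45 with the dimmest 50% of genes removed, 62 with a variance trend and 1 to 12 when single samples were left out (1 in 6 of those 8 fits, 3 when replicate 1 of wild-type hypoxia was absent and 12 when replicate 2 of knockout-labelled hypoxia was absent). The averaged oxygen comparison gave 0 as fitted, 15 with the trend and 0 to 4 without single samples, 4 being without knockout-labelled hypoxia replicate 2. The genotype comparison gave 3 in normoxia with the dimmest 50% removed, and 0 in normoxia and in hypoxia when fitted on the groups compared alone. Leaving out single samples gave 0 to 8 in hypoxia, 0 to 1 in normoxia, 0 to 7 for hypoxia in knockout-labelled cells and for the difference of the responses, and 0 to 1 for hypoxia in wild-type cells. The extremes of 8 and 7 came without knockout-labelled hypoxia replicate 2. None of the 10 module genes was called in any of these fits.

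Deviations of same-numbered samples correlated across genes at 0.338 between the knockout-labelled groups and at 0.308 between the wild-type groups, but at -0.317 and -0.262 between the genotypes in hypoxia and in normoxia. With the replicate number as a block, 1 gene was called in the averaged genotype comparison and 0 in the averaged oxygen comparison. With genotype and number together as a random block, these were 1 and 15, the 15 included Bnip3 and Ero1a, and neither block called a module gene. Crossed numbers as a block, added after the data were seen, gave 453 of 17014 genes and 0, and the 453 held 2 module genes, Ltbp2 and Tgfbr2. Genotype and number as a fixed block, also added later, gave 0 in the averaged oxygen comparison.

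Where a sample was left out, the oxygen fold change also held the difference between replicates, since their numbers were then unequal in hypoxia and normoxia. Without single samples the averaged oxygen fold change changed sign for 8 of the 10 genes, with ranges of -0.049 to 0.37 for Tgfb1, -0.41 to 0.12 for Tgfb2, -0.33 to 0.039 for Tgfb3, -0.17 to 0.37 for Ltbp1, -0.19 to 0.30 for Ltbp2, -0.24 to 0.11 for Tgfbr2, -0.37 to 0.11 for Tgfbr3 and -0.40 to 0.088 for Skil. The averaged genotype fold change did so for Tgfb2 (-0.060 to 0.48), Ltbp1 (-0.039 to 0.50) and Skil (-0.18 to 0.30). The difference of the responses did so for Smad5 (-2.06 to 0.12) and Col1a2 (-0.65 to 0.011). With the mean over a gene's probes the oxygen fold change turned to -0.067 for Ltbp2, 0.053 for Skil, 0.078 for Itgb8 and -0.15 for Crebbp, the genotype fold change of Nedd4l to -0.12 and the difference of the responses for Ppm1a to -0.077. The cause was not tested. Ltbp2 kept its direction between the genotypes without any single sample (-1.61 to -1.11), and so did Smad7 in the averaged genotype and averaged oxygen comparisons (0.41 to 0.54 in both). Tgfbi passed the threshold with the dimmest 50% removed (adjusted p = 0.0454) and, with Dcn, under the variance trend (adjusted p = 0.0235 for both). Quantile normalization, a common 75th percentile and array weights turned no sign among the module genes. With 2 samples in a group, and 1 where a sample was left out and assumed to vary like the others, only large differences could pass.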
